A study of Poecilia mexicana x Poecilia latipinna and Poecilia formosa with 28 samples.

Results

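In a brood of F1 hybrid fish, 45 of the 31997 genes in the count table differed between sisters in brain and liver alike: a hybrid with a high level in brain had a high level in liver too. The 45 genes were chosen from the hybrids' own values. A gene was kept when its mean was at least 2 CPM (a gene's counts per 1000000 counts of its library) in hybrid brain and in hybrid liver, and when the SD of log2(CPM + 0.5) over the 6 hybrids was at least 0.5 in each organ. Pearson's r of that log2 level between brain and liver over the 6 hybrids also had to be at least 0.9. Differences among the hybrids in brain and liver are therefore a description of the choice, with no test. The hybrid ovary and all organs of the clonal fish were not used in it. Tests of the clone against the hybrids in brain and liver do include hybrid values that the choice had used.

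Poecilia formosa, the Amazon molly, consists of females only, is of hybrid origin and reproduces by gynogenesis: its eggs keep the mother's whole genome, and sperm of a related species only starts their development. Daughters of a clone therefore carry nearly the same genome, apart from mutation and rare exchange. Sisters of an F1 brood between P. mexicana and P. latipinna each have 1 set of chromosomes from each parent species, but differ in which of the mother's and which of the father's alleles they received.

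The experiment set females of 1 laboratory P. formosa clone (fish 3, 4, 11 and 12) against females of 1 F1 brood from 1 P. mexicana female and 1 P. latipinna male (fish 4, 10, 11, 12, 13 and 14). All were 3 months old and untreated, and the clone and the hybrids' parents descend from wild fish of different places in Tamaulipas, Mexico. Messenger RNA was read from each fish's brain and liver and from its ovary, with an ovary library for hybrids 4, 10, 12 and 13 only, which makes 28 libraries. Each group is 1 clone or 1 brood, so tests between groups cover the spread among sisters and not among clones or broods. Fish numbers name different animals in the clone and in the brood.

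Library totals ran from 32460110 to 46316691 counts, and libraries of the same group differed by more than counting noise. The brains of P. formosa fish 4 and 11 stood apart from the other 8 brains on the first principal component, and the brain calls and some counts of the clone are also given without them. In liver 25.6% to 41.4% of all counts fell on 10 genes, the highest share in hybrid 12. By their library numbers the samples form a first series (all P. formosa fish and hybrids 4 and 10) and a second series (hybrids 11, 12, 13 and 14), which no label calls a batch. Totals moved with the series in the hybrids: 32460110 to 36317742 counts in second-series brains against 37504268 and 37706902 in first-series brains, 40586409 to 44384168 against 45917897 and 46316691 in livers, and 41249726 and 41483379 against 45102793 and 45987727 in ovaries. The table does not pair its numeric gene IDs with names, so organ marker genes could not be checked, no gene is given a function, and a few IDs stand for the rest. In RNA of whole organs, fewer cells of a type and less RNA per cell cannot be told apart.

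Of the 10287 genes that averaged 2 CPM or more in both organs of the hybrids, 253 reached the SD of 0.5 in brain, 2305 in liver and 164 in both. The 45 genes are those of the 164 with r of at least 0.9. The other 119 met both SD limits but varied less alike, 27 of them with r below 0. Their median SD was 0.762 in brain and 0.738 in liver, against 0.778 and 1.09 for the 45. The smaller of a gene's 2 SDs was 0.505, 0.529 and 0.532 in the members nearest that limit and 0.479, 0.473 and 0.465 in the genes just outside it. For r the nearest values were 0.901, 0.902 and 0.902 inside and 0.89996, 0.899 and 0.899 outside.

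**Figure D1:**
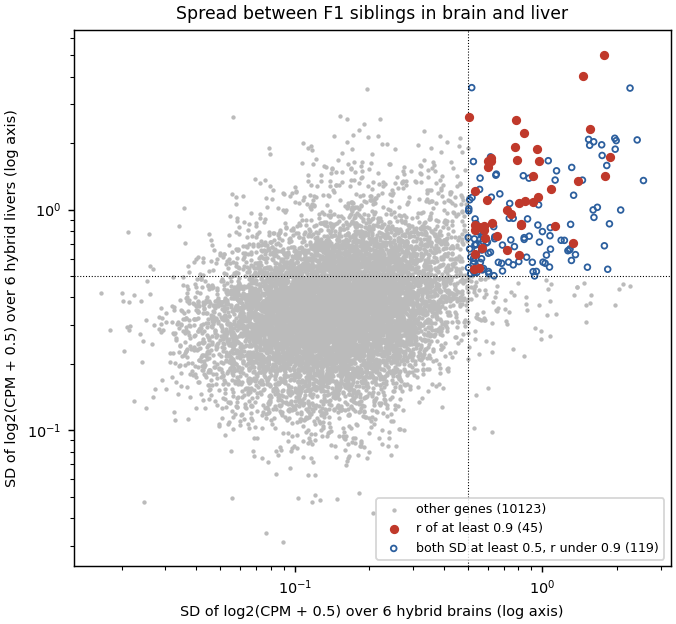
SD of log2(CPM + 0.5) over the 6 hybrid brains (x axis) and the 6 hybrid livers (y axis), both on log axes, for the 10287 genes that averaged 2 CPM or more in both. Filled points are the 45 genes that varied alike (r of at least 0.9) and open points the 119 that varied without that likeness; most genes lie far below an SD of 0.5 in brain.

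Among the 45 genes the spread was wider in liver. Their SD over the hybrids was 0.505 to 1.88 in brain (median 0.778) and 0.540 to 5.03 in liver (median 1.09), against medians of 0.146 in brain and 0.356 in liver over the 10287 genes. It was larger in liver than in brain for 37 of the 45. For 8 of them the highest hybrid was at least 8-fold above the lowest in both organs. The likeness of the organs rested on single fish in part: 18 of the 45 met the rule with any 1 hybrid left out, 13 in 5 of the 6 cases, 10 in 4, 3 in 3 and 1 in 2.

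Hybrid 10 was the highest fish for 20 of the 45 genes by the mean of brain and liver, which is 44.4%, against 11.9% of the 10287 genes. The lowest fish was hybrid 11 for 14 genes (31.1%, against 8.51% of the 10287) and hybrid 12 for 14 others (31.1%, against 30.9%). The same fish was highest in both organs for 30 of the 45 (66.7%, against 21.3% of the 10287 genes). It was lowest in both for 19 (42.2%, against 18.7%). The rule asked for such a likeness. By this pattern the 45 fell into 3 groups.

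The first and largest group followed the library series. In 26 of the 45 genes, 57.8%, every second-series hybrid lay below both first-series hybrids in brain and in liver. The same was so for 4.67% of the 10287 genes and for 18 of the 119 with r under 0.9 (15.1%). These are the values the genes were chosen on, and asking for likeness of the organs raises the count by itself. Second-series hybrids were lower by a median of 2.73-fold in brain and 4.31-fold in liver over the 26. A group of 4 genes ran the other way without overlap, 8.89% of the 45 against 6.61% of the 10287 genes. In the remaining 15 the series overlapped in brain or liver. Each hybrid belongs to 1 series with all its organs, so differences between fish and between series cannot be told apart here.

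With levels centred within each series before the rule was applied, 21 genes passed, and 15 of them were among the 45. None of the 26 passed then, 1 of the 4 did, and 14 of the 15 with overlapping series did. Centring takes the difference between the series out, and the 15 genes still met the rule. It used the same brains and livers that chose the genes and set the groups, so these counts follow in part from that choice. Whether the series accounts for the likeness was not tested. The likeness of brain and liver was taken over the hybrids of both series together, and not within each series. Between hybrids 4 and 10 some of these genes, 103130951 and 103130731 among them, ran in opposite directions in brain and liver.

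**Figure D2:**
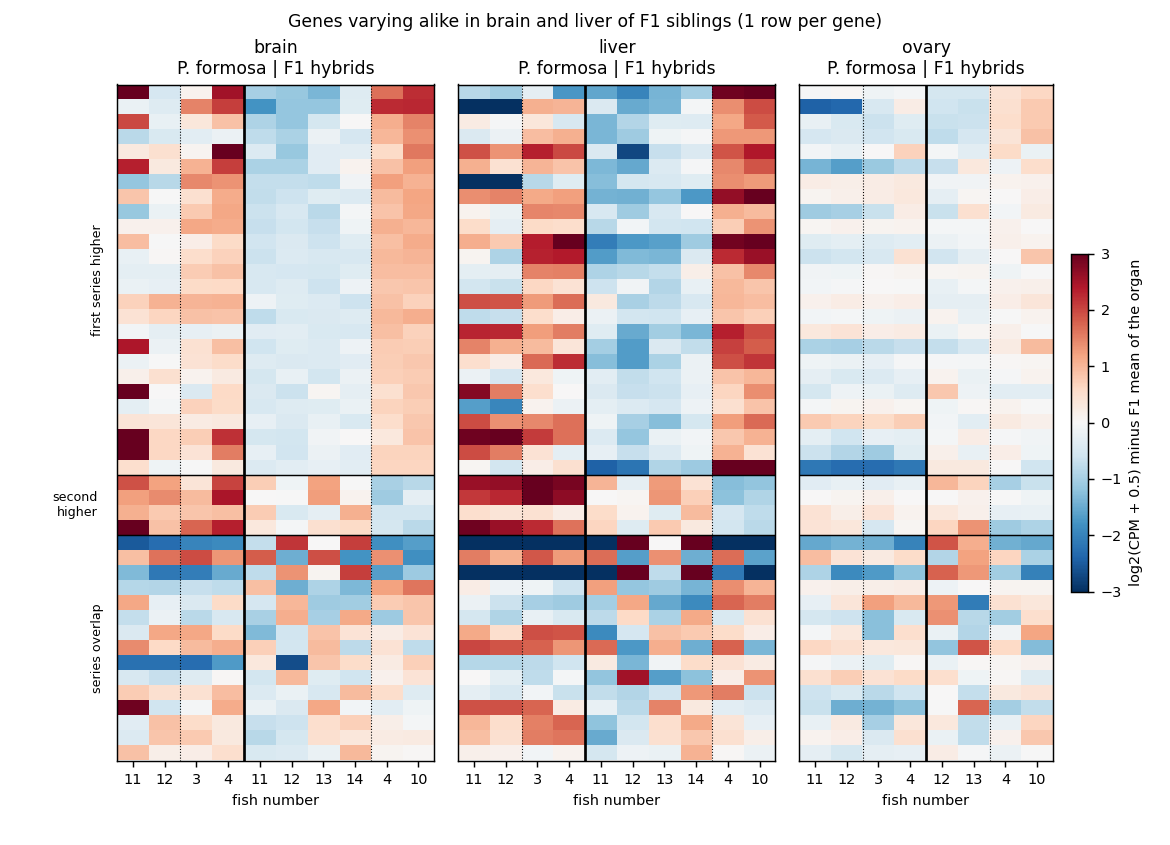
Log2(CPM + 0.5) of each of the 45 genes (1 row each) in every fish (columns) of brain, liver and ovary, minus the hybrid mean of that organ, with P. formosa left of the F1 hybrids. Rows of the 26 genes change colour between second-series and first-series hybrids in brain and liver. In ovary their change is smaller by the median, -0.22 (second minus first series, log2), and ranges from -1.31 to 0.65.

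Genes 103147762 and 103137606 had the widest spread over both organs among the genes that were high in the first series. In brain, 103137606 stood at 29.3, 45.7, 45.3 and 79.3 CPM in hybrids 11, 12, 13 and 14, against 483 and 495 CPM in hybrids 4 and 10. In liver it stood at 175, 82.5, 90.2 and 227 CPM in the second series, against 616 and 919 CPM in the first. The series did not overlap in either organ, nor in ovary, where hybrids 12 and 13 had 36.5 and 35.2 CPM and hybrids 4 and 10 had 78.3 and 96.3 CPM.

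Gene 103147762 showed the same order of the series. It had 21.3, 15.6, 24.1 and 31.4 CPM in the livers of hybrids 11, 12, 13 and 14, against 488 and 518 CPM in hybrids 4 and 10. In brain it had 2.34 to 5.16 CPM in the second series, against 22.8 and 33.9 CPM in the first. In ovary the gap narrowed to 16.0 and 16.2 CPM in hybrids 12 and 13, against 31.6 and 36.1 CPM in hybrids 4 and 10.

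Gene 103132337 belonged to the 15 that overlapped between the series, and split the brood 3 against 3 in brain and liver. P. formosa brains had 6.99 to 15.1 CPM of it, P. formosa livers 3.11 to 5.74 CPM and P. formosa ovaries 0.768 to 1.51 CPM. Hybrids 10, 12 and 14 had 0.613, 0.945 and 0.648 CPM in brain and 0.0653, 0.0451 and 0.119 CPM in liver. Hybrids 4, 11 and 13 had 9.79, 13.7 and 14.7 CPM in brain and 4.92, 4.95 and 3.92 CPM in liver. Both sides of the split held fish of both series. The ovaries followed the same split, with 0.0443 and 0.0727 CPM in hybrids 10 and 12, at the level of a few reads, and 1.15 and 1.93 CPM in hybrids 4 and 13. The 4 P. formosa fish thus all lay with the high hybrids.

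Gene 107835689, chosen after its values were seen, was the most like it of the 45, with r = 0.919 over the 12 brain and liver libraries after each organ's mean was taken off, against 0.408 for the next gene. It divided the brood in the same way. P. formosa livers had 5.08 to 8.53 CPM. Hybrid livers had 0.370, 0.180 and 0.308 CPM in fish 10, 12 and 14 and 7.15, 6.73 and 4.31 CPM in fish 4, 11 and 13, so the clone again lay beside the high hybrids.

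Gene 103155053, also chosen after its values were seen, was low in a single hybrid. P. formosa brains had 3.73 to 5.81 CPM, while hybrid 12 had 2.75 CPM and the other 5 hybrids 24.2 to 36.1 CPM. In liver the P. formosa fish had 1.18 to 1.51 CPM, hybrid 12 had 0.676 CPM and the other hybrids 2.30 to 3.91 CPM. In brain the clone thus lay near the low hybrid, and in liver between hybrid 12 and the others. Ovary did not repeat the pattern: P. formosa ovaries had 73.7 to 97.5 CPM and the 4 hybrid ovaries 82.2 to 104 CPM, with hybrid 12 lowest.

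Genes 103130951 and 103130731 had the widest liver range of the 45; 103130731 was chosen after its values were seen, as the most like 103130951 of the 45 (r = 0.985 on the same measure). P. formosa livers had 0.166 to 19.2 CPM of 103130951. In hybrid liver it stood at 56729 CPM in hybrid 12, 10610.5 CPM in hybrid 14 and 363 CPM in hybrid 13, and at 13.2 to 29.9 CPM in hybrids 4, 10 and 11. P. formosa livers had 0.285 to 88.3 CPM of 103130731, while hybrid livers had 39338, 15702.5 and 449.5 CPM in fish 12, 14 and 13 and 52.4 to 173 CPM in the others. Both genes were thus abundant in the livers of hybrids 12 and 14 and far lower in those of hybrids 4, 10 and 11 and of the clone.

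In the brains of the same fish 103130951 ran from 0.292 CPM in hybrid 4 to 12.1 CPM in hybrid 12, and 103130731 from 0.716 to 15.4 CPM. A brain level amounted to 0.0214% to 4.99% of the same fish's liver level for 103130951, and to 0.0235% to 3.31% for 103130731. The shares of the 2 genes were 0.0214% and 0.0235% in hybrid 12, where the liver level was highest. They were 0.108% and 0.0982% in hybrid 14, and 0.653% and 0.781% in hybrid 13. In hybrids 4, 10 and 11 they were 0.975% and 0.413%, 3.03% and 1.60%, and 4.99% and 3.31%. Whether liver RNA reached brain libraries of these fish was not tested. In ovary too both genes were high in hybrids 12 and 13 and low in hybrids 4 and 10, with 8.58 and 4.75 CPM of 103130951 in hybrids 12 and 13, against 0.355 and 0.413 CPM in hybrids 10 and 4. Of the 45 genes, 3 had a liver mean over 20 times their brain mean, these 2 among them, and 0 had the reverse.

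**Figure D3:**
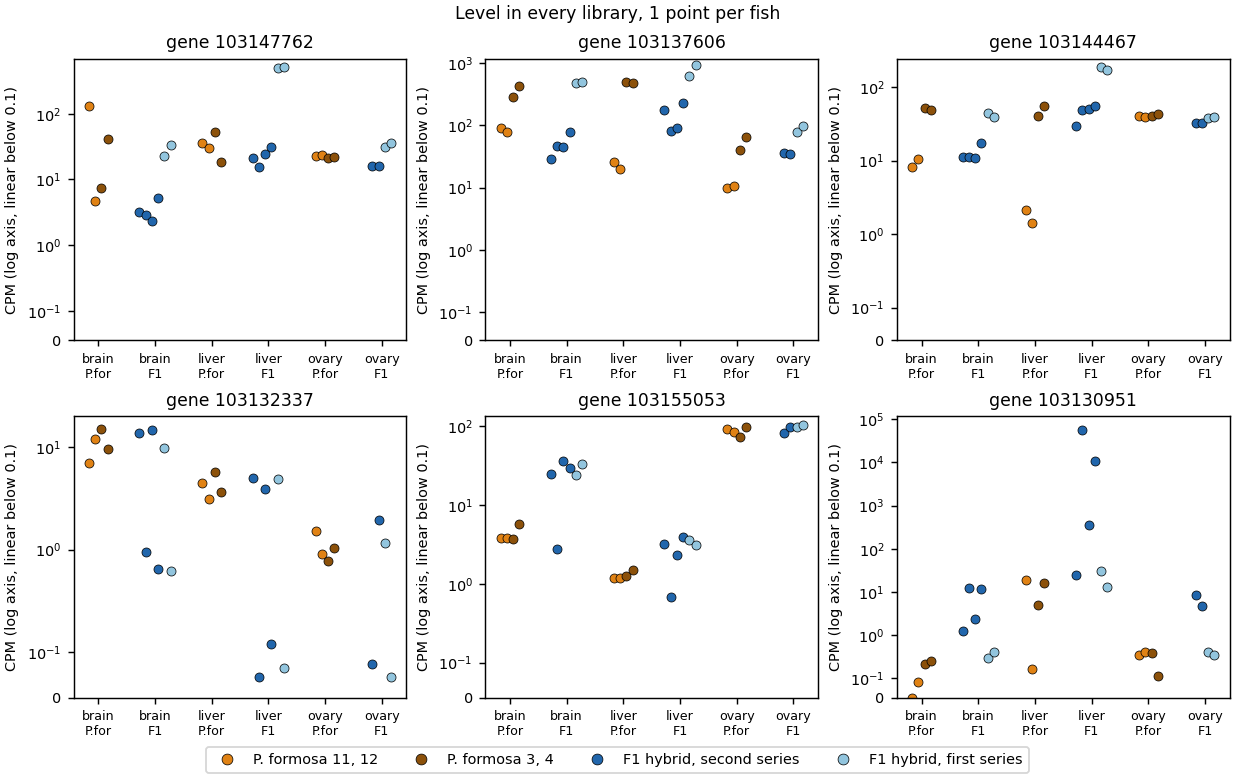
CPM (log axis, linear below 0.1) of named genes of the 45 in every library, 1 point per fish, with P. formosa left of the F1 hybrids in each organ and colours for fish group and library series. Gene 103132337 splits the hybrids 3 against 3 with all P. formosa fish beside the high hybrids, and 103155053 is low in 1 hybrid and in all P. formosa brains.

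Genes 103143754 and 103143755 occupy neighbouring rows of the table, the only such pair among the 45, and were named after their values were seen; the row order is not stated to follow the genome. Hybrid 11 was lowest for both in brain (47.7 and 107 CPM) and in liver (21.7 and 45.5 CPM). Hybrid 13 was highest for both in brain (217 and 266 CPM). In ovary hybrid 10 was highest and hybrid 13 lowest for both, so the order in brain was not kept there. Whether the genes are near-identical copies, and how the counting treated any reads they share, was not tested.

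The ovary offered a readout that the choice of genes had not used. For each gene the hybrid highest and the hybrid lowest in brain and liver among fish 4, 10, 12 and 13 were taken, and their ovary levels compared. Of the 39 genes with an ovary mean of at least 2 CPM, 30 kept the direction (76.9%), against 54.3% of the 9832 genes above 2 CPM in all 3 organs. In 10 of the 39 the ovary difference was 1 or more on the log2 scale in the same direction (25.6%), against 2.14% of the 9832 genes. It was 1 or more in the opposite direction in 2 of the 39 (5.13%), against 2.47% of the 9832. The 93 genes that met the SD limits with r under 0.9 lay in between, with 61 (65.6%) in the same direction and 15 (16.1%) by at least 1. Their chosen fish also differed less in brain and liver, by a median of 1.51 against 1.94 for the 39 (log2).

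The ovary differences were small beside those of the other organs. Over all 45 genes the median difference between the chosen fish was 0.34 in ovary and 2.23 for the mean of brain and liver, in log2. Over the 39 genes the median ovary difference was 0.31, and over the 9832 genes it was 0.03. The same hybrid was highest in ovary for 18 of the 39 (46.2%, against 28.8% of the 9832 genes) and the same hybrid lowest for 16 (41.0%, against 27.0%). With 4 ovaries, all of them from fish that the rule had used in other organs, these counts describe the brood's ovaries and carry no p-value.

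**Figure D4:**
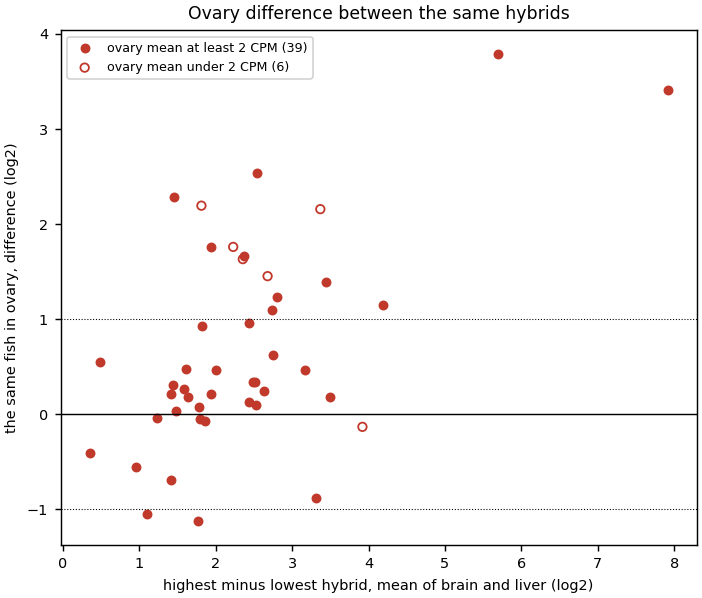
For each of the 45 genes, the log2 difference between the hybrid highest and the hybrid lowest in brain and liver (x axis) and the ovary difference between the same 2 fish (y axis); filled points have an ovary mean of at least 2 CPM and open points less. Most points lie above 0 on the y axis, 35 of 45, but far below the size of the brain and liver difference.

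The 26 genes with low second-series levels differed by a median of -0.22 (second minus first series, log2) in ovary, against -1.45 in brain and -2.11 in liver. The 4 genes of the opposite pattern differed by 1.07, 1.01 and 1.30 in ovary, brain and liver. Without a test, the series did not overlap in ovary for 26 of the 39 genes (66.7%), and for 66.6% of the 9832 genes. By direction, hybrids 12 and 13 lay below hybrids 4 and 10 in 16 of the 39 (41.0%, against 27.2% of the 9832 genes) and above them in 10 (25.6%, against 39.5%). In edgeR's quasi-likelihood test of hybrids 12 and 13 against hybrids 4 and 10, 6 of the 45 passed a Benjamini-Hochberg adjusted p of 0.05, 3 higher and 3 lower in the second series (13.3%, against 4.56% of all tested genes; 6.67% in each direction, against 2.23% higher and 2.33% lower).

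Among the 6, gene 103130951 was higher in second-series ovaries by a log2 fold change of 4.07 (edgeR adjusted p = 0.0262), 103147762 was lower (-1.11, adjusted p = 0.0282) and 103137606 was lower (-1.32, adjusted p = 0.0229). With 1 first-series ovary left the whole test made few calls: without hybrid 4 it called 1 of the 45 (0.0966% of all tested genes), and without hybrid 10 it called 0 (0.145%). Without hybrid 12 it called 5 of the 45 (1.92% of all) and without hybrid 13 it called 9 (10.4%). Over these 4 fits the log2 fold change of 103130951 stayed between 3.59 and 4.43 and that of 103147762 between -1.22 and -1.01. With all 4 ovaries 17 of the 45 had an unadjusted p under 0.05 (37.8%, against 27.7% of all tested genes), and DESeq2 called 16 (35.6%, against 12.9%).

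The clone showed how much the same genes vary among fish with nearly the same genome. The median SD of the 45 genes was 0.475 over the P. formosa brains against 0.778 over the hybrid brains, and 0.537 over the P. formosa livers against 1.09 over the hybrid livers. In ovary, over the 39 genes, it was 0.133 in P. formosa against 0.332 in the hybrids. Over the 10287 genes the medians, P. formosa against hybrids, were 0.196 against 0.146 in brain and 0.247 against 0.356 in liver. The hybrids' brain and liver values were chosen for their spread, so only the ovary compares spread that the choice did not use. Hybrids had the larger ovary SD for 31 of the 39 genes, 7348 of the 9832 and 79 of the 93 with r under 0.9. This count therefore does not set the 45 apart from other variable genes. The ovary medians, P. formosa against hybrids, were 0.0896 against 0.145 over the 9832 genes and 0.151 against 0.366 over the 93.

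The 45 genes also varied among the clonal fish more often than most genes did. The P. formosa SD reached 0.5 in both brain and liver for 15 of the 45 (33.3%), against 3.83% of the 10287 genes. The 119 genes that varied in the hybrids with r under 0.9 reached it as often, 38 of 119 (31.9%), so this share does not set the 45 apart from other variable genes. In ovary 6 of the 39 reached an SD of 0.5 in P. formosa (15.4%), against 0.895% of the 9832 genes and 12 of the 93 with r under 0.9 (12.9%), so there too the share does not set the 45 apart. Without P. formosa fish 4 and 11 the count for brain and liver was 8 of 45.

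A test of ovary spread, run in limma on the distance of each fish from its group's mean, called 6 of the 39 genes, all with the larger spread in the hybrids (15.4%, against 8.54% of all tested genes). A gene entered this test with a mean of at least 2 CPM in either genotype. Of the 6, 103130951 and 103130731 did so through the hybrids only. Their ovary means were 0.319 and 0.418 CPM in P. formosa against 3.52 and 3.44 CPM in the hybrids. At such P. formosa levels the added 0.5 CPM narrows the spread, so the direction of these calls was in part set beforehand. None was called with the larger spread in P. formosa, where 0.162% of all tested genes were, and 13 of the 39 had an unadjusted p under 0.05 (33.3%, against 25.1%). Genes 103147762 and 103152696 had the smallest adjusted p, at differences of -0.55 and -0.89 (P. formosa minus hybrid, log2; limma adjusted p = 0.000797 and 0.00179). Without any 1 hybrid none of the 6 calls was left, but the whole test then called 0, 0, 0 and 2 genes, and the differences stayed between -0.57 and -0.47 for 103147762 and between -0.92 and -0.75 for 103152696 over the fits without 1 fish. The hybrid ovaries span both library series while all P. formosa ovaries are of the first, and the test has no term for the series, so spread among hybrids and a difference between the series cannot be told apart in it. The hybrid ovaries of both genes divide by series. For 103152696 P. formosa fish had 8.53 to 9.41 CPM, hybrids 12 and 13 had 22.3 and 17.8 CPM, and hybrids 4 and 10 had 5.28 and 6.70 CPM. For 103147762 P. formosa fish had 21.3 to 23.8 CPM, hybrids 12 and 13 had 16.0 and 16.2 CPM, and hybrids 4 and 10 had 31.6 and 36.1 CPM. The test is most sensitive to such a split, with 2 fish above and 2 below.

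**Figure D5:**
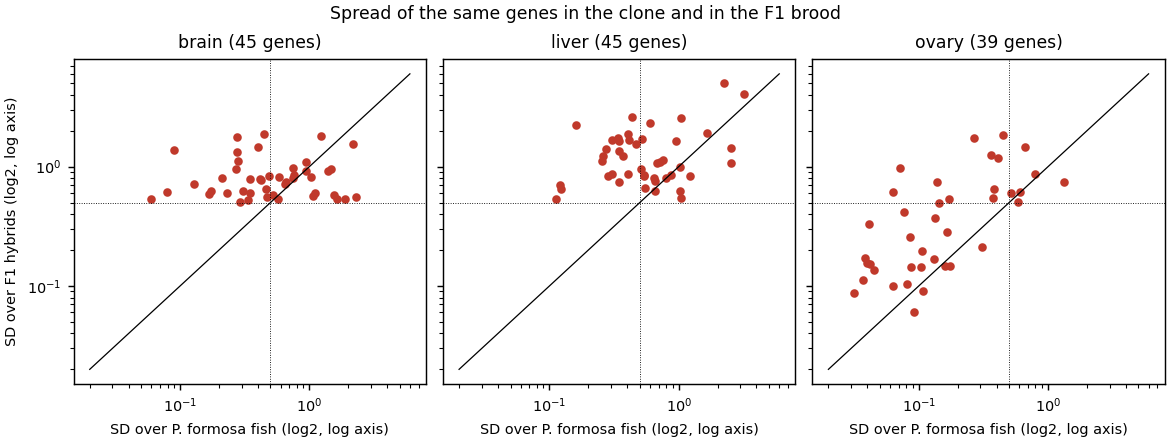
SD of log2(CPM + 0.5) over the P. formosa fish (x axis) and over the F1 hybrids (y axis), both on log axes, for the 45 genes in brain and liver and the 39 with at least 2 CPM in ovary. The hybrids' SD is the larger for 33 genes in brain, for 37 in liver and for 31 in ovary, and the wide spread of the hybrids in brain and liver was a condition of the choice. Of the 10287 genes with a hybrid mean of at least 2 CPM in brain and liver, it is the larger for 3623 in brain and 7357 in liver.

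The clonal fish differed from each other in a pattern that touched the first-series-high genes; it was looked for after the values were seen. By library number fish 11 and 12 come after fish 3 and 4. Fish 11 and 12 both lay below fish 3 and 4 in brain and in liver in 10 of the 45 genes (22.2%), against 2.84% of the 10287 genes and 13.4% of the 119. The reverse held for 0 of the 45, against 4.11% of the 10287. All 10 belonged to the 26 genes that were low in second-series hybrids. Taken alone, the organs were less one-sided. In liver fish 11 and 12 lay below in 21 of the 45 (46.7%, against 14.2% of the 10287) and above in 12 (26.7%, against 33.3%). In brain they lay below in 14 (31.1%, against 10.6%) and above in 1 (2.22%, against 12.3%). In ovary fish 11 and 12 lay below fish 3 and 4 in 10 of 39 genes (25.6%), near the 21.4% of the 9832 genes. With fish 4 and 11 left out, fish 12 lay below fish 3 in both brain and liver in 21 of the 45, against 25.4% of the 10287 genes.

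Gene 103144467, chosen after its values were seen, is one of the 10. In P. formosa brain it had 8.10 and 10.4 CPM in fish 11 and 12, against 52.3 and 48.9 CPM in fish 3 and 4. In P. formosa liver it had 2.13 and 1.42 CPM in fish 11 and 12, against 40.0 and 55.4 CPM in fish 3 and 4. The brain gap was -2.40 between the clonal pairs (fish 11 and 12 minus 3 and 4, log2) and -1.70 between the hybrid series, where hybrids 11 to 14 had 11.0 to 17.6 CPM and hybrids 4 and 10 had 45.0 and 39.4 CPM. The P. formosa ovaries did not show it, with 41.0 and 39.8 CPM in fish 11 and 12 and 40.8 and 43.0 CPM in fish 3 and 4.

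Gene 103137606 showed the same split of the clone in all organs. In brain, fish 11 and 12 had 89.0 and 77.8 CPM, against 289 and 434 CPM in fish 3 and 4. In liver they had 26.0 and 19.8 CPM, against 490 and 479 CPM. In ovary they had 10.0 and 10.5 CPM, against 40.0 and 65.2 CPM. Which fish of the clone differ and which library numbers they carry cannot be told apart.

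Between the genotypes, whether or not the test was passed, the estimate was higher in P. formosa for 37 of the 45 genes in brain (82.2%, against 53.2% of all tested genes), for 24 in liver (53.3%, against 50.4%) and for 14 in ovary (31.1%, against 47.6%). In brain 6 of the 45 were called by edgeR's quasi-likelihood test at an adjusted p of 0.05, 4 higher and 2 lower in P. formosa (13.3%, against 12.0% of all tested genes; 7.76% of all were higher and 4.26% lower). In liver 8 were called, 5 higher and 3 lower (17.8%, against 46.7%; 24.2% of all were higher and 22.5% lower). In ovary 13 were called, 3 higher and 10 lower (28.9%, against 27.3%). The 10 are 22.2% of the 45, against 13.0% of all tested genes, and the 3 are 6.67%, against 14.3%. The median log2 fold change, P. formosa minus hybrid, was 0.39 for the 45 against 0.03 for all tested genes in brain, 0.12 against 0.01 in liver, and -0.21 against -0.02 in ovary. The spread of the hybrids in brain and liver, for which the genes were chosen, enters this test as error. The floor of 2 CPM was set on hybrid brain and liver only. Genes low there in P. formosa could thus be chosen, while genes low there in the hybrids could not. Without P. formosa fish 4 and 11, edgeR called 0 of the 45 in brain, and 3.92% of all tested genes. The 37 genes and the median of 0.39 in brain include these fish and were not taken without them. Leaving them out changed the sign of the brain estimate for 103147762 (2.06 to -1.01), 103137606 (0.16 to -0.14) and 103144815 (0.13 to -0.19). The other named genes kept theirs. With all fish 14 of the 45 brain levels had an unadjusted p under 0.05 (31.1%, against 30.7%). A fit with the library series as a term in the model sets the clone against hybrids 4 and 10. In that fit edgeR called 4 in brain, 2 higher and 2 lower in P. formosa (8.89%, against 2.73% of all tested genes). It called 15 in liver, 5 higher and 10 lower (33.3%, against 36.2%), and 17 in ovary, 5 higher and 12 lower (37.8%, against 27.3%).

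The clone's mean lay inside the range of the hybrid fish for 30 of the 45 brain levels (66.7%, against 53.7% of the 10287 genes), 30 of the liver levels (66.7%, against 50.7%) and 28 of the ovary levels (62.2%, against 50.6%). In brain 13 lay above that range (28.9%, against 29.8%) and 2 below it (4.44%, against 16.4%). In liver 11 lay above (24.4%, against 24.9%) and 4 below (8.89%, against 24.4%), and in ovary 5 above (11.1%, against 22.5%) and 12 below (26.7%, against 26.9%). Without P. formosa fish 4 and 11, 5 of the brain levels lay above the range (11.1%, against 17.4%). The 45 were chosen for a wide range of the hybrids in brain and liver. The called genes without overlap between the genotypes were 1 higher and 1 lower in brain (2.22% each, against 5.10% and 3.49% of all tested genes), 5 higher and 0 lower in liver (11.1% and 0, against 18.3% and 10.6%), and 2 higher and 7 lower in ovary (4.44% and 15.6%, against 13.6% and 11.6%).

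Gene 103135538 was the only called gene higher in P. formosa brain without overlap. It averaged 19.9 ± 15.01 CPM in P. formosa brains (SD, n = 4) and 3.66 ± 1.496 CPM in hybrid brains (SD, n = 6), a log2 fold change of 2.50 (edgeR adjusted p = 0.0129). Most of its spread in P. formosa came from fish 11 at 41.0 CPM, and without fish 4 and 11 the log2 fold change was 1.36 (edgeR adjusted p = 0.116). In liver it averaged 20.1 ± 7.30 CPM in P. formosa and 3.70 ± 1.88 CPM in the hybrids, and ovary did not pass (log2 fold change -0.29, edgeR adjusted p = 0.768), but with library series as a term the ovary was higher in P. formosa (1.52, edgeR adjusted p = 0.0118).

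Gene 103130951 was the called gene lower in P. formosa brain without overlap, at 0 to 0.259 CPM in P. formosa against 0.292 to 12.1 CPM in the hybrids (log2 fold change -5.03, edgeR adjusted p = 0.0423). The P. formosa values are of a few reads each. Its brain mean was 0.140 CPM in P. formosa and 4.64 CPM in the hybrids, and the floor of 2 CPM was set on the hybrids only. The call was lost in 8 of the 10 fits that left out 1 fish, where the adjusted p ran from 0.0378 to 0.107 over the 10. Without P. formosa fish 4 and 11 the log2 fold change was -4.96 (edgeR adjusted p = 0.297), and with library series as a term, against hybrids 4 and 10, it was -1.32 (edgeR adjusted p = 0.575).

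Genes 103152696 and 103145560 were the called genes most increased in P. formosa liver. The level of 103152696 was 12.2 to 35.6 CPM in P. formosa livers and 0.367 to 4.62 CPM in hybrid livers, a log2 fold change of 2.97 (edgeR adjusted p = 0.00359). The level of 103145560 was 12.7 to 28.3 CPM in P. formosa livers and 0.799 to 7.06 CPM in hybrid livers (2.37, edgeR adjusted p = 0.00432). Both calls held without any single fish. In ovary 103145560 did not pass (edgeR adjusted p = 0.499), with 200.1 ± 8.92 CPM in P. formosa and 191 ± 13.3 CPM in the hybrids (SD, n = 4 each).

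Among genes called in ovary without overlap the largest fall was that of 103144815, to 36.8 to 40.4 CPM in P. formosa against 121 to 223 CPM in the hybrids (log2 fold change -2.28, edgeR adjusted p = 2.59e-05). This gene was high in the brains and livers of first-series hybrids, but its hybrid ovaries ran the other way, with 223 and 221 CPM in hybrids 12 and 13 against 182 and 121 CPM in hybrids 4 and 10. Gene 103139987 was also lower in P. formosa ovary, at 1.53 ± 0.532 CPM against 4.38 ± 1.71 CPM in the hybrids (SD, n = 4 each; -1.53, edgeR adjusted p = 0.00978). Both calls held without any single fish.

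Gene 103145210 was higher in P. formosa ovary, at 214 ± 12.6 CPM against 133 ± 23.3 CPM in the hybrids (SD, n = 4 each; log2 fold change 0.67, edgeR adjusted p = 0.00295). Gene 103135982 was higher too, at 109 ± 6.65 CPM against 89.5 ± 8.84 CPM (0.28, edgeR adjusted p = 0.0275), but its call was lost without P. formosa fish 11 or fish 12 (highest adjusted p of the fits without 1 fish, 0.0806). In liver both had P. formosa levels beside those of hybrids 4 and 10: 14.2 to 21.4 CPM of 103145210 in P. formosa, against 1.82 to 4.68 CPM in second-series hybrids and 13.0 and 17.9 CPM in first-series hybrids. With library series as a term, the log2 fold change in liver was -0.07 for 103145210 (edgeR adjusted p = 0.870) and -0.44 for 103135982 (edgeR adjusted p = 0.277). In ovary that fit kept the call of 103145210 (0.47, edgeR adjusted p = 0.000972) and lost that of 103135982 (0.20, edgeR adjusted p = 0.0939). In brain it gave -0.37 for 103145210 (edgeR adjusted p = 0.151) and -0.99 for 103135982 (edgeR adjusted p = 0.0016), which was thus called lower in P. formosa.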

How the data were processed

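The authors deposited raw counts of reads per gene, in 1 table that covers all 28 libraries. The submitters' processing notes name TopHat2, an aligner, and featureCounts, a read counter; settings, strand handling, annotation and genome build are not given in the sources used here. Per the labels' protocols, TRIzol-extracted, DNase-treated RNA was made into TruSeq mRNA libraries. Reads of hybrids hold alleles of 2 species, and such alleles can be counted unequally. Columns were matched to samples by their names, and 0 per-sample columns remained unmatched.

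CPM used plain library totals, and the gene rule was applied to log2(CPM + 0.5); at most 300 genes would have been kept. Genotypes, and library series in ovary, were tested per organ on all genes with edgeR 4.0.16 in R 4.3.3 (filterByExpr, TMM, robust quasi-likelihood, Benjamini-Hochberg at 0.05). Ovary spread was tested with limma 3.58.1 on genes averaging 2 CPM or more in either genotype, and it is most sensitive where 2 fish lie above and 2 below. DESeq2 1.42.0 was an alternative. Scripts were tested on simulated counts. The members and gene lists were chosen with earlier results of these data known. Lists of pathways, markers and genes could not be used, since IDs carry no names. Genes were therefore named by ID: at most 2 per direction for the widest hybrid spread, for genotype calls without overlap (ranked by log2 fold change), and for ovary spread. Others are said to be chosen after their values were seen. Alternatives were other scalings, pseudocounts, filters, tools, left-out fish and model terms.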

Additional observations from a re-analysis of the deposited data

Results flagged for a closer look

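Of 102 groups of libraries looked at for 17 named genes, 4 had 1 library far from the rest, and chance flags about 1 group in 20. P. formosa liver 12 had 0.285 CPM of gene 103130731, while the other P. formosa livers had 52.6 to 88.3 CPM. P. formosa brain 4 had 5.81 CPM of 103155053, while the other 3 had 3.73 to 3.86 CPM. Hybrid 12 had 2.75 CPM of 103155053 in brain, against 24.2 to 36.1 CPM in the other hybrids. In liver it had 0.676 CPM, against 2.30 to 3.91 CPM. Gene 103155053 was named because 1 hybrid brain was low, so its flag in hybrid 12 brain was fixed by that choice. The rule asked for liver levels like those of brain, so the rate of 1 in 20 holds for neither flag of hybrid 12.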

How the results depend on the processing

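The rule gave 45 genes, but 12 with Spearman's rho in place of Pearson's r, only 8 of them among the 45. It gave 21 with levels centred within the library series (15 of them among the 45). With TMM-scaled totals it gave 49 (42 of them among the 45), and 37 to 62 without each hybrid. The share whose ovary followed by at least 1 was 33.3% of the 45, and 20% with a pseudocount of 2. The fish numbers shared by the genotypes name different animals: deviations of same-numbered fish correlated at -0.067 to 0.137 in brain, 0.044 to 0.094 in liver and -0.21 to 0.103 in ovary. With these numbers as a replicate block, 0 of the 45 genes were called between genotypes in brain (0.584% of all tested genes), 14 in liver (29.1%) and 1 in ovary (2.62%). For ovary spread 0 were called, and 0 of all tested genes. The numbers do not pair the fish. Calls in brain were 6 (12.0% of all tested genes), but 3 with no filter (9.73%) and 0 without P. formosa fish 4 and 11 (3.92%). Without each fish they were 1 to 6 (5.42% to 15.8% of all). Calls in liver were 8 (46.7%), and 5 to 10 without each fish (36.4% to 48.7%). Library series as a term gave 4 calls in brain, 15 in liver and 17 in ovary. Calls in ovary were 13, and 5 to 12 without each fish, those of ovary spread 6, and 0 to 6, those between series in ovary 6, and 0 to 9, with 16 in DESeq2. Where a series was left with 1 ovary, that ovary was assumed to vary like the others. The count of genes with a clonal SD of at least 0.5 in brain and liver was 15, 10 to 14 without each P. formosa fish and 8 without fish 4 and 11. For these alternatives the share over all genes was not taken. Of the 45 genes, those with clonal fish 11 and 12 below fish 3 and 4 in brain and liver numbered 10 (2.84% of the 10287 genes). Without each fish they numbered 12 to 16 (5.45% to 11.2% of the 10287), since fewer fish overlap less. Without fish 4 and 11 they numbered 21 (25.4% of the 10287). Leaving out P. formosa fish 4 and 11, and all alternatives of the clonal split, were chosen after seeing the data. Of 1112 values of named genes under alternatives, 920 kept direction and side of the threshold, 60 changed sign without a call on either side, 104 lost a call, 26 gained one in the same direction and 0 called values changed sign. With library series as a term, 2 gained a call against the sign without it: in ovary 103135538 stood at 1.52 and 103152696 at 0.56, higher in P. formosa.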
